A study of Mus musculus with 122 samples.

Results

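C/EBPβ-bound regions that stayed open without Cebpb were defined as stretches of chromatin with an ATAC peak in every one of 5 libraries, with or without the gene, and a C/EBPβ ChIP peak in both ChIP libraries. The 5 ATAC peak lists were merged where peaks overlapped by 1 bp or more, which gave 129652 regions, and 52338 of these had a peak in all 5 lists. Of the 52338, 12983 (24.8%) overlapped 1 of the 18752 ChIP regions called in both ChIP lists by 1 bp or more, and these 12983 are the regions described here. The regions were chosen by the presence of a peak in these 7 lists, so their openness and their ChIP signal are given below as descriptions, with no test.

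The study held 122 samples of 39 groups, among them fetal macrophages, fetal monocytes and chimeras that are not used here. The samples used here were alveolar macrophages, the resident phagocytes of the lung airspace, from adult mice, and cells were recovered by lavage. For ATAC sequencing, macrophages of C57BL/6 mice carrying Tg(Mx1-cre)1Cgn/J served as control (2 libraries), and macrophages of Cebpbtm1.1Elgaz/J mice crossed with that transgene, MxCre+ Cebpb flox/flox, served as knockout (3 libraries). Both groups carried the Cre and both were cultured with CSF2 at 20 ng/ml for 7 days and mouse IFNα at 1000 units/ml, so that the interferon that switches on the Mx1 promoter is shared by control and knockout. The ChIP was made on uncultured macrophages of wild-type C57BL/6 mice (2 libraries), which means that binding and openness were read in cells of different states.

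RNA was counted in 4 comparisons of uncultured adult macrophages, none of them on the cultured MxCre cells. The first set Cebpb -/- against Cebpb +/+ mice of the strain C/EBPb tm1Pfj on a mixed background (3 against 3 libraries, made as companions of ATAC samples not analysed here). The second set CD11c +/Cre Cebpb flox/flox against CD11c +/Cre mice on C57BL/6 (4 against 3), where Tg(Itgax-cre,-EGFP)4097Ach/J deletes the gene in CD11c-expressing cells and the controls carry the Cre too. Another compared the CD11b low fraction of Cebpb -/- macrophages with Cebpb +/+ macrophages that were not split by CD11b (4 against 4), so the gate differed between its groups. The last compared Lip/Lip with Lip +/+ mice of the strain C/EBPtm1.2Acle on a mixed background (4 against 4), whose allele is named after LIP, the short C/EBPβ isoform without activation domains. These are called the Cebpb -/-, CD11c-Cre, CD11b low and Lip sets below. In bulk libraries of this kind, fewer cells of a type and less RNA per cell cannot be told apart.

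C/EBPβ is a leucine-zipper factor that binds DNA as a dimer with itself or with relatives such as C/EBPα and ATF4, and in macrophages it works beside PU.1, which keeps much of the enhancer landscape of these cells open. ATAC sequencing cuts DNA where nucleosomes leave it accessible, so a peak marks an open promoter or enhancer, whichever factor holds it open. In alveolar macrophages GM-CSF (CSF2) signalling sustains PPARγ, the nuclear receptor behind the lipid handling that these cells need to clear surfactant.

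The promoters below were printed because their start lay inside one of the 12983 regions and they held the C/EBP motif, so that the bound sequence can be seen. Each is the 250 bases before a RefSeq start (GRCm38.p6), 5′ to 3′ on the gene's strand, and capitals mark matches to TTGCNNAA on either strand (TTNNGCAA on the other).

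Mmp8 (chr9:7558179-7558428, plus strand): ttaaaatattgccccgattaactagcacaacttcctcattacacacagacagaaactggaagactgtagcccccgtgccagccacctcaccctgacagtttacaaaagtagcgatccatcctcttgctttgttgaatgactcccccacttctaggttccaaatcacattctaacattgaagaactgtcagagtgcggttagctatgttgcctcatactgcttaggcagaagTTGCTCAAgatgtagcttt

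Klra2 (chr6:131247363-131247612, minus strand): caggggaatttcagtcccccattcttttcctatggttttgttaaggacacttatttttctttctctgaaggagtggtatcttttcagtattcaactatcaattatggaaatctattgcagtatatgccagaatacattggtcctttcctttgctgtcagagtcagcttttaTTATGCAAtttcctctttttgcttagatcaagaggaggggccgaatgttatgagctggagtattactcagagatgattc

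Rbp4 (chr19:38124812-38125061, minus strand): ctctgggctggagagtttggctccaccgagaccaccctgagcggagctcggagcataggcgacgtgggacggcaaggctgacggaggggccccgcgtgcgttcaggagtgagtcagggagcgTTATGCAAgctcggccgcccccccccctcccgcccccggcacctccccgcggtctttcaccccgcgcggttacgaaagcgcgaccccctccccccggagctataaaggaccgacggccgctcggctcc

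Irf2 (chr8:46739495-46739744, plus strand): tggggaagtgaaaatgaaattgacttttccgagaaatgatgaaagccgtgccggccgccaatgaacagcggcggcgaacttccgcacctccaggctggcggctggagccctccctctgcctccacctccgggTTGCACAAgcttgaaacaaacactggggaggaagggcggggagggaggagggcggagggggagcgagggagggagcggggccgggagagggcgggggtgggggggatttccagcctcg

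Pparg (chr6:115421816-115422065, plus strand): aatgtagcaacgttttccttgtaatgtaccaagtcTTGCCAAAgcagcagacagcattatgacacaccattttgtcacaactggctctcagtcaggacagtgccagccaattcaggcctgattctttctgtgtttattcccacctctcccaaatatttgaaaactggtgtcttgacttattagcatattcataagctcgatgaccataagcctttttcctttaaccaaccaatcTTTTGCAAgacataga

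Ctsl (chr13:64370521-64370770, minus strand): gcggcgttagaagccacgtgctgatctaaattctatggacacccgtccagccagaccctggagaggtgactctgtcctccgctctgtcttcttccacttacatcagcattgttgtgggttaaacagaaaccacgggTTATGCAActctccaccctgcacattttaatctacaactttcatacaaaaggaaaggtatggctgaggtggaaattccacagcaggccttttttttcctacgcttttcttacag

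Clec4e (chr6:123289872-123290121, minus strand): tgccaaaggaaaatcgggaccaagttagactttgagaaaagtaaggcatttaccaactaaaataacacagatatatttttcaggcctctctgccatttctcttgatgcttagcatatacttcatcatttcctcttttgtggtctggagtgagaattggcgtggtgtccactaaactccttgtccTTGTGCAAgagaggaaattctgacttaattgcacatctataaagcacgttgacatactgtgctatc

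Acot1 (chr12:84009252-84009501, plus strand): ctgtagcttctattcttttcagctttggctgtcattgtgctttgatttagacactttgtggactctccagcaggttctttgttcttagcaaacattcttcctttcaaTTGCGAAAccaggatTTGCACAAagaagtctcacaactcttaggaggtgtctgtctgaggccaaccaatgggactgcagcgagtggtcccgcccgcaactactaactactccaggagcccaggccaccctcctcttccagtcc

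The next 2 starts also lay in bound open regions, with ChIP fold of 21.0 and 30.5 at Galnt9 and 25.8 and 22.2 at Flt1, but no match was found in the 300-base window around either start.

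Galnt9 (chr5:110603255-110603504, plus strand): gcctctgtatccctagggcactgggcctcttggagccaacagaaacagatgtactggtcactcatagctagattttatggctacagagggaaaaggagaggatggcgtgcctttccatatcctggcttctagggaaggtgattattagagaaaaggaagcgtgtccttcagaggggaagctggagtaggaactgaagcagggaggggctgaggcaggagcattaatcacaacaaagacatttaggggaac

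Flt1 (chr5:147726012-147726261, minus strand): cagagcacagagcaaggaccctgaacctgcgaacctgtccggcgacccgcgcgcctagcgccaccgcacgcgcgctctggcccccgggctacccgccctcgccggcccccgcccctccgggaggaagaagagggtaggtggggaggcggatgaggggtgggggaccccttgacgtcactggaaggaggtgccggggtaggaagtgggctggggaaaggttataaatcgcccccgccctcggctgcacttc

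The match closest to its start began 16 bases upstream, in Pparg, which held a second match 215 bases upstream. Mmp8 had its match 19 bases upstream, Clec4e 66, Klra2 79, Ctsl 114, Irf2 118 and Rbp4 128. Acot1 held a pair of matches, at 143 and 128 bases upstream.

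Over all RefSeq promoters whose start lay in a bound open region, 435 of 2979 (14.6%) held TTGCNNAA in the window from 250 bases before to 50 bases after the start. The same motif was in 354 of 6424 promoters (5.51%) whose start lay in a region open in all 5 lists with no ChIP peak, and in 3547 of all 32851 promoters of that length (10.8%). The share went from 9.14% over 11.9% and 15.6% to 21.7% when these promoters were split into 4 equal groups from the lowest to the highest ChIP rank. The C/EBP-ATF composite TGATGCAA was rarer and ordered the same way, at 1.04%, 0.311% and 0.895%.

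Motifs of other factors did not separate bound from unbound open promoters in this way. SP (GGGCGG) was in 64.1% of both kinds and in 35.7% of all promoters, and ETS (CCGGAAG) was in 19.9% and 19.6% against 8.86%. PU.1 (GAGGAAGT) was in 3.79% and 3.69%, AP-1 (TGANTCA) in 5.54% and 5.09%, CRE (TGACGTCA) in 3.26% and 3.58%, and NF-Y (CCAAT) in 42.4% and 37.3%. All motifs were searched on both strands, and in 18 of the 435 promoters a C/EBP match shared bases with a CCAAT match. Median GC content was 60.7% in bound and 61.3% in unbound open promoters, against 52.7% overall. A match is a string of letters and not a measured site, and its absence says nothing of the factor.

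**Figure D1:**
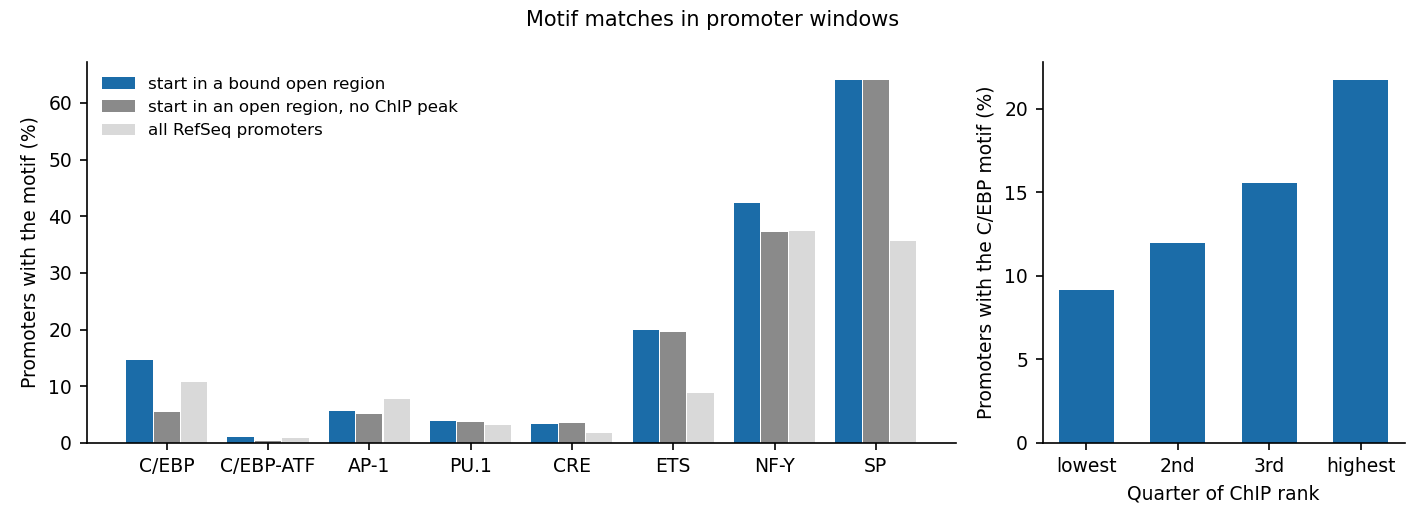
Left, percent of RefSeq promoter windows (300 bases) with a match to each motif, for starts in bound open regions, starts in regions open in all 5 lists without a ChIP peak, and all promoters; right, percent with the C/EBP motif in 4 equal groups by ChIP rank among the bound open promoters. The C/EBP bars differ between bound (14.6%) and unbound (5.51%) open promoters, while the SP bars are level at 64.1%.

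The 12983 regions made up 81.9% of the 15846 bound regions open in both controls. Of 45570 regions open in both controls with no ChIP peak, 34770 (76.3%) were open in all 5 lists. Another 1120 bound regions were open in both controls and in no knockout list, and 77 had the reverse pattern. Of the ChIP regions called in both lists, 12579 (67.1%) touched a bound open region, and 1892 lay in no ATAC region of any list. Most of the 12983 held 1 ChIP region (12840), 142 held 2, and 1 held 3.

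At the edge of the rule the signal was weak. The lowest −log10 q of a region over its 5 lists had a median of 12.2, against 5.43 over the lists that called it for the 1517 bound regions open in 4 lists. In 1000 regions (7.70%) the lowest −log10 q was under 5.

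Bound open regions had a median width of 698 bp (interquartile range 535 to 936), against 577 bp for the 34770 unbound regions open in all lists and 359 bp for the 1120 bound regions lost in knockout. A region is the union of its peaks, so regions called in more lists tend to be wider by construction. Wide regions also meet a ChIP region more easily. Among the 12600 with a position relative to a gene start, 2785 (22.1%) lay within 1 kb of a start. The share was 18.8% for unbound open regions, 6.54% for bound lost regions (71 of 1086) and 8.74% for bound regions without an ATAC peak. Another 50.1% lay in gene bodies and 27.8% between genes, the median distance to a start was 12400 bp, and 18.2% were over 50 kb away. Start sites came from a RefSeq promoter table that covers 17491 of 21373 protein-coding genes (81.8%), so shares at starts are low estimates. Wider regions lay at starts more often, as given below, and the part of width in these shares was not tested.

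The ChIP fold of a peak, the authors' enrichment over local background, had a median of 12.5 and 11.5 in the 2 libraries. It was 12.5 and 12.2 in bound lost regions and 8.59 and 7.66 where no ATAC peak was called. The median binding signal was therefore close in regions that stayed open and in those that were lost. Within the 12983 the fold ran from 6.25 at the tenth to 28.1 at the ninetieth percentile in the first ChIP library and from 6.51 to 27.1 in the second.

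The strongest binding was near Cd33, a sialic-acid-binding inhibitory receptor of myeloid cells, in a region 12836 bp from its start (chr7:43546007-43546506) with a ChIP fold of 86.7 and 77.3. Next came a region 24300 bp from the start of the predicted gene Gm8883 (chr1:71912412-71912868), with 86.7 and 74.9. A pair of regions at the start of Gm36301 (chr6:115519144-115519990 and chr6:115520239-115520750) shared 1 ChIP region of fold 82.7 and 72.5. Another pair, 56858 and 59593 bp from the start of the transcription factor gene Sp3 (chr2:73037304-73038093 and chr2:73040039-73040474), shared 1 ChIP region of fold 81.9 and 64.2. In the first control list the percentile rank of these regions, explained next, ran from 1.85 at the farther Sp3 region to 76.6 at Cd33. The nearer Sp3 region ranked 12.2. Regions of a pair carry the fold of the ChIP region they share, and the place of its summit is not given here. Strong binding within the region ranked 1.85 is therefore not shown.

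Fold values cannot be compared between lists that were called separately. Each list was therefore ranked over the same 52338 regions by the highest peak fold of a region, from 0 for the lowest to 100 for the highest, and only ranks were compared. The bound open regions had median ranks of 54.5 and 57.0 in the control lists and 44.7, 47.3 and 46.5 in the knockout lists. Unbound regions open in all lists had 48.5 and 47.1 in control and 52.1, 51.3 and 51.6 in knockout. Every knockout value of the bound regions lay below both control values, and the order was reversed for the unbound ones. The mean of the medians went from 55.8 to 46.2, a difference of -9.58 percentile points.

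Counted region by region, 3707 of the 12983 (28.6%) had all 3 knockout ranks below both control ranks, against a background of 19.0% over the 52338 regions and 14.5% of unbound open regions. All 3 knockout ranks lay above both control ranks in 1185 (9.13%), against a background of 16.7% and 20.4% of unbound open regions. The remaining bound regions had overlapping ranks. Ranking by −log10 q in place of fold gave 30.5% below and 8.50% above, and 3090 regions were below and 798 above by both measures. The same 7 lists chose the regions, and the ranks of one class of region move against those of the others by construction.

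Bound and unbound regions were alike at gene starts and unlike elsewhere in the direction of their ranks. At gene starts the mean of the median ranks went from 47.7 in control to 37.7 in knockout for bound and from 50.1 to 42.6 for unbound regions, so both classes ranked lower in knockout. Away from starts bound regions went from 58.0 to 48.5, whereas unbound regions went from 46.8 to 53.6. At starts 30.9% of bound and 26.4% of unbound regions had all knockout ranks below the controls, and away from starts 27.9% and 11.8%.

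Binding strength changed these shares little. In 5 equal groups from the lowest to the highest ChIP rank, the share with all knockout ranks below both controls was 26.4%, 27%, 28.6%, 30.7% and 30.1%. The level of a rank depended on the measure: in 5 equal groups by width, the widest had a median fold rank of 56.6 and a median −log10 q rank of 74.5, and the narrowest had 36 and 52.0. Of the widest group 52.1% lay at gene starts, against 8.86% of the narrowest.

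**Figure D2:**
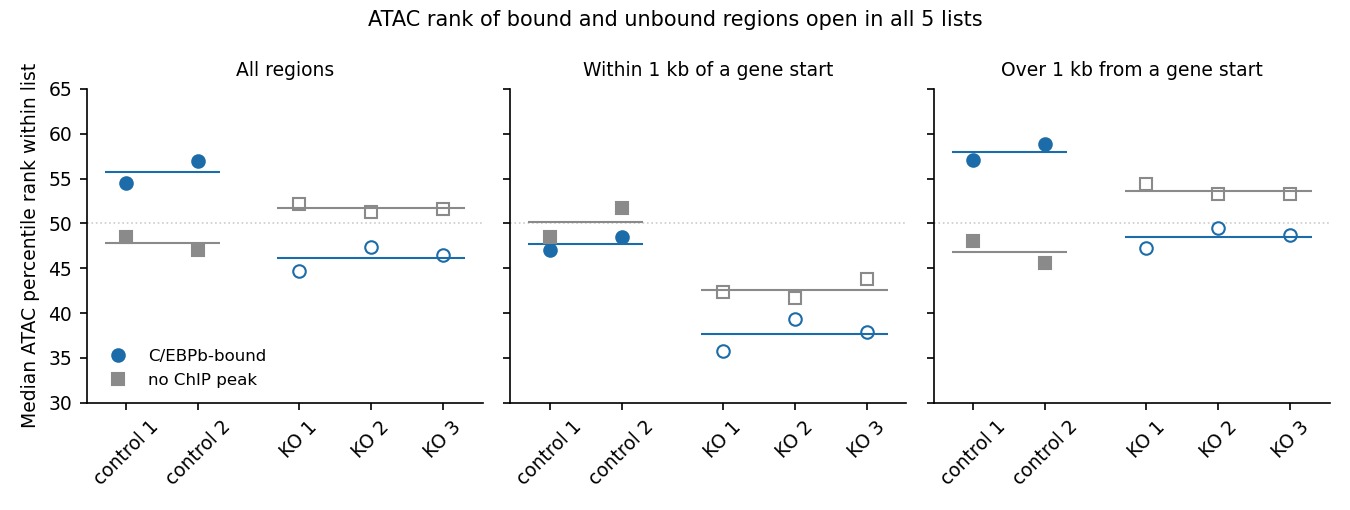
Median percentile rank of ATAC peak fold within each list (y axis) for C/EBPβ-bound and unbound regions open in all 5 lists, in 2 control and 3 knockout (KO) lists; lines are group means and the dotted line is the middle rank. Over all regions the bound class sits at 54.5 and 57.0 in control and at 44.7 to 47.3 in knockout, and the unbound class runs the other way except at gene starts.

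The largest shift to a lower rank was in a region 8553 bp from the start of Tmx4, a thioredoxin-related membrane protein (chr2:134652674-134653278). It ranked 98.1 and 99.4 in control and 18.2, 14.5 and 9.69 in knockout. A region within 10 kb of the predicted gene Gm18780 (chr7:113443492-113443948, between genes) went from 98.3 and 97.7 to 17.4, 7.70 and 30.2, with a ChIP fold of 28.9 and 46.1. Both were among the most open regions of the control lists and ranked at 30.2 or lower in each knockout list.

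In the body of Sgk3, a kinase gene (chr1:9881893-9882386), the ranks were 92.3 and 95.2 in control and 6.99, 12.0 and 28.2 in knockout. In the body of Alcam, an adhesion receptor (chr16:52371706-52372555), they were 87.2 and 93.0 against 9.92, 9.07 and 17.5. In the body of Slc25a24, a mitochondrial carrier (chr3:109153269-109153968), they were 89.8 and 94.3 against 17.8, 16.2 and 10.4. All 5 regions kept a called peak in every knockout list, since the rule demands it. Of the genes these regions lie in or nearest to, Alcam rose in each comparison, by a log2 fold change of 1.48 (adjusted p = 0.00083, edgeR) in the Cebpb -/- set, 1.61 (adjusted p = 1.3e-05) in the CD11c-Cre set, 1.16 (adjusted p = 0.00046) in the CD11b low set and 1.34 (adjusted p = 0.018) in the Lip set. Tmx4, Sgk3 and Slc25a24 passed the test in none of the 4.

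The largest shift to a higher rank was in the body of Dock5, an exchange factor for the GTPase Rac (chr14:67859276-67859881), with 4.56 and 15.5 in control and 83.5, 76.8 and 91.9 in knockout. At the start of Bcl2a1c, of the anti-apoptotic A1 family (chr9:114329159-114329640), the ranks were 2.28 and 28.2 against 77.7, 64.5 and 85.1. In Rarb, a retinoic acid receptor gene (chr14:16538151-16538817), they were 6.32 and 46.3 against 80.2, 87.8 and 78.8. The control lists were far apart at Rarb, and more so in a region whose nearest start was that of 4930559C10Rik (chr12:94210515-94211090), with 11.1 and 71.6 against 96.3, 96.0 and 98.1. In the body of Fgd4, an exchange factor for the GTPase Cdc42 (chr16:16576406-16576917), the ranks were 3.92 and 8.76 against 51.6, 72.2 and 61.1. The RNA of 2 of these genes went the other way: Dock5 fell in the Cebpb -/- set (log2 fold change -3.57, adjusted p = 9e-06, edgeR) and in the CD11b low set (-1.83, adjusted p = 9.4e-05), and Fgd4 fell in the Cebpb -/- set (-1.20, adjusted p = 0.00055).

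**Figure D3:**
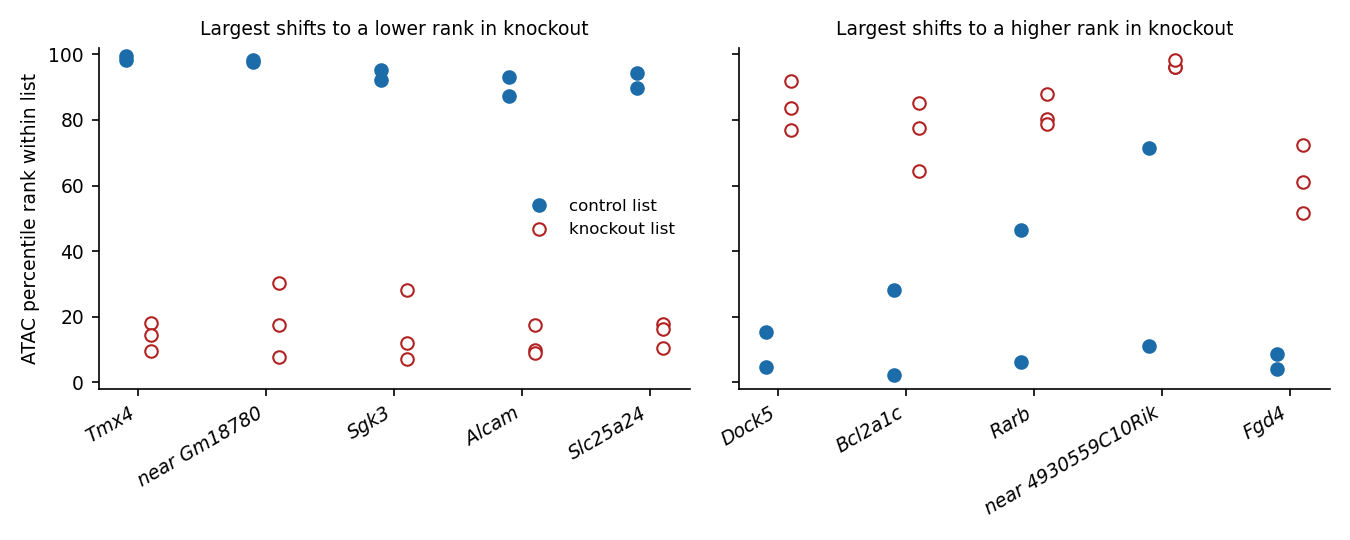
Percentile rank of ATAC peak fold in each of 2 control and 3 knockout lists for the 5 bound open regions with the largest shift to a lower rank (left) and to a higher rank (right), named by the gene they lie in or near. No control point overlaps a knockout point, because that was the condition for naming them; the control points of Rarb (6.32 and 46.3) and 4930559C10Rik (11.1 and 71.6) lie far apart.

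The region with the most ChIP regions, 3, covered the start of Bri3 (chr5:144254476-144256867, 2392 bp), and 1 over the start of Tmem87b (chr2:128817358-128819556) held 2. The widest on the assembled chromosomes, of 2698 bp, lay within 10 kb of Vmp1 and Mir21a (chr11:86580080-86582777), followed by 2477 bp near Malat1 (chr19:5793152-5795628) and 2446 bp near Csf2rb, the shared β chain of the GM-CSF receptor (chr15:78351473-78353918). The Vmp1 and Mir21a region ranked below 1 in all 5 lists and the Csf2rb region below 5, with peaks that were broad and low in fold.

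The targeted gene itself held no bound open region. At Cebpb (chr2:167688915-167690432) both control lists had an ATAC peak over the gene, of fold 3.43 and 2.74, and none of the 3 knockout lists had one there. Each knockout list had a peak with its summit 638 to 658 bp upstream of the gene. Control 2 had a peak at that upstream site too, of fold 3.06, and control 1 did not. C/EBPβ ChIP peaks lay upstream of the gene, of fold 42.5 and 26.3, and in the gene, of fold 10.2 and 5.76. Cebpb RNA was 422, 529 and 507 CPM (counts scaled to library size) against 9.61, 13.4 and 31.6 in the Cebpb -/- set and 586, 605 and 683 against 71.4, 25.1, 81.2 and 49.8 in the CD11c-Cre set. Cebpb was 1483, 1264, 601 and 562 CPM against 32.6, 60.2, 50.7 and 36.2 in the CD11b low set. The Lip allele kept its transcript, with 2977, 2949, 2146 and 3937 CPM of Cebpb in Lip +/+ and 5989, 5447, 4262 and 3152 in Lip/Lip (log2 fold change 0.65, adjusted p = 0.23, edgeR).

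At Pparg, 7 bound open regions lay in or within 10 kb of the gene. The RefSeq table gives 3 starts, at chr6:115361144, chr6:115362349 and chr6:115422066, and only the last, the known start of the Pparg2 transcript, lay in a bound open region (chr6:115421654-115422214, with the promoter printed above). The region at the first start was open in both controls and 2 knockouts with no ChIP peak, and that at the second in 1 knockout list. At the downstream start the ChIP fold was 40.2 and 53.4, and the ATAC ranks were 83.3 and 52.3 in control and 62.2, 44.5 and 40.4 in knockout, which overlap. An adjacent region (chr6:115420761-115421323), under the same ChIP region, ranked 15.8 and 14.5 against 5.27, 20.7 and 3.56.

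The other Pparg regions pointed in different directions. One 2205 bp into the gene from the downstream start (chr6:115424271-115424845), with a ChIP fold of 47.2 and 36.8, ranked 57.2 and 28.9 against 51.9, 23.0 and 58.5. In chr6:115374939-115375997 all knockout ranks were slightly below the controls (62.7 and 58.4 against 56.0, 58.2 and 55.2), and in chr6:115479674-115481061 all were above (50.0 and 59.6 against 71.7, 85.2 and 77.7). The rule demands that all these regions be open in knockout, and they were read in cultured MxCre cells, whereas RNA was read in uncultured cells of other mice. Pparg RNA fell: it was 139, 201 and 231 CPM against 12.7, 20.9 and 23.9 in the Cebpb -/- set, with a log2 fold change of -3.31 ± 0.28 (SE, adjusted p = 3.3e-05, edgeR). The fall was -0.51 ± 0.11 (adjusted p = 0.0082) in the CD11c-Cre set and -1.69 ± 0.24 (adjusted p = 3.5e-05) in the CD11b low set. The Lip set gave -0.78 ± 0.25 (adjusted p = 0.1). The counts are per gene and do not separate the Pparg transcripts.

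RNA was a measure that the choice of regions did not use. A gene was linked to a region at its start (within 1 kb) or within 10 kb of the gene, body included. Of 3038 genes with a bound open region at the start, 2244 passed the filter on low counts in the Cebpb -/- set. Of these 281 (12.5%) were higher and 315 (14.0%) lower in the mutant at an edgeR adjusted p under 0.05, against 14.6% higher and 12.6% lower among all 10262 genes tested (27.2% in either direction). In the CD11c-Cre set 186 (8.36%) of 2226 were higher and 177 (7.95%) lower, against 10.3% and 6.48% of 9992 (16.8% in either direction). In the CD11b low set 130 (7.08%) of 1835 were higher and 179 (9.75%) lower, against 9.16% and 8.08% of 7699 (17.2% in either direction). In the Lip set 32 of 2160 (1.48%) were higher and 34 (1.57%) lower, against 3.10% and 1.84% of 9491 (4.94% in either direction). Of genes with an unbound region open in all 5 lists at the start and no bound one there, 13.5% were higher and 10.3% lower in the Cebpb -/- set, 9.51% and 4.42% in the CD11c-Cre set, 8.83% and 6.01% in the CD11b low set, and 2.89% and 1.19% in the Lip set. The lower share was thus larger with a bound than with an unbound open start in each of the 4 sets, and the higher share smaller. Against all genes tested, the lower share with a bound open start was larger in the 3 knockout sets and smaller in the Lip set, where the higher share was 1.48% against 3.10%. These differences between gene groups were not tested.

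The number of regions around a gene made more difference. In the Cebpb -/- set, 8.73% of genes with unbound open regions only within 10 kb were lower in the mutant. The share was 11.7% with 1 bound open region, 19.3% with 2 to 4 and 34.0% (103 of 303 tested) with 5 or more, against 12.6% of all genes. Higher genes of this set showed no such order, at 14.6%, 12.9%, 16.9% and 13.2%. In the CD11c-Cre set both directions went up with the number of regions. There the lower share was 4.08%, 6.54%, 10.2% and 13.3% (40 of 300) against 6.48% of all genes, and the higher share 9.0%, 9.20%, 14.0% and 16.3% against 10.3%. In the CD11b low set the lower share was 4.86%, 6.77%, 13.6% and 22.0% (59 of 268) against 8.08%, and the higher share 8.65%, 8.19%, 11.8% and 7.84% against 9.16%. In the Lip set 6.71% of genes with 5 or more regions were lower (20 of 298) against 1.84% of all genes, and 2.68% higher against 3.10%. Without the knockout library 3 of the Cebpb -/- set, whose inflammatory genes stood apart, 127 genes with 5 or more regions were lower.

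Genes with 5 or more regions were also more highly expressed, with a median control CPM of 50.6 against 26.7 for all genes tested in the Cebpb -/- set, and some are long (Lpp spans 599 kb). The part of expression level and gene length in the shares was not tested. Where a bound region lost in knockout lay within 10 kb as well, 179 of 583 genes (30.7%) were lower in the Cebpb -/- set, against 14.0% (700 of 4984) with bound open regions and no lost one. With a lost region and no bound open one, 26 of 122 (21.3%) were lower. Median control CPM was 47.8 with both kinds and 30.9 with bound open regions only. The part of expression level and of the number of regions in this contrast was not tested. The genes with most regions were Lpp (21), Vps13d (18), Nsmce2 (16) and Itpr2 (15). Of these, in the Cebpb -/- set, Lpp fell by 0.50 (adjusted p = 0.045), Vps13d by 1.29 (adjusted p = 0.00036) and Itpr2 by 0.73 (adjusted p = 0.0043) on the log2 scale, and Nsmce2 was at -0.16 (adjusted p = 0.53).

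Start-linked genes were also split into 5 equal groups by the shift in ATAC rank of their regions. In the Cebpb -/- set, the lower share was 11.5% in the group with the largest shift to a lower rank, then 12.3%, 14.3% and 13.9%, and 18.6% in that with the most upward shift. The lowest and highest groups had 5.37% and 10.4% in the CD11c-Cre set, 5.98% and 13.8% in the CD11b low set, and 0.928% and 3.25% in the Lip set. Genes of the highest group were thus more often lower in RNA than those of the lowest group in each of the 4 sets. This difference between groups was not tested. Among all genes tested the lower share was 12.6%, 6.48%, 8.08% and 1.84% in the 4 sets. The higher share in the lowest and highest groups was 13.1% and 12.8% in the Cebpb -/- set and 10.7% and 6.99% in the CD11c-Cre set. It was 7.88% and 6.15% in the CD11b low set and 2.32% and 1.5% in the Lip set. The regions were read in cultured MxCre cells and the RNA in uncultured cells of other mice.

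**Figure D4:**
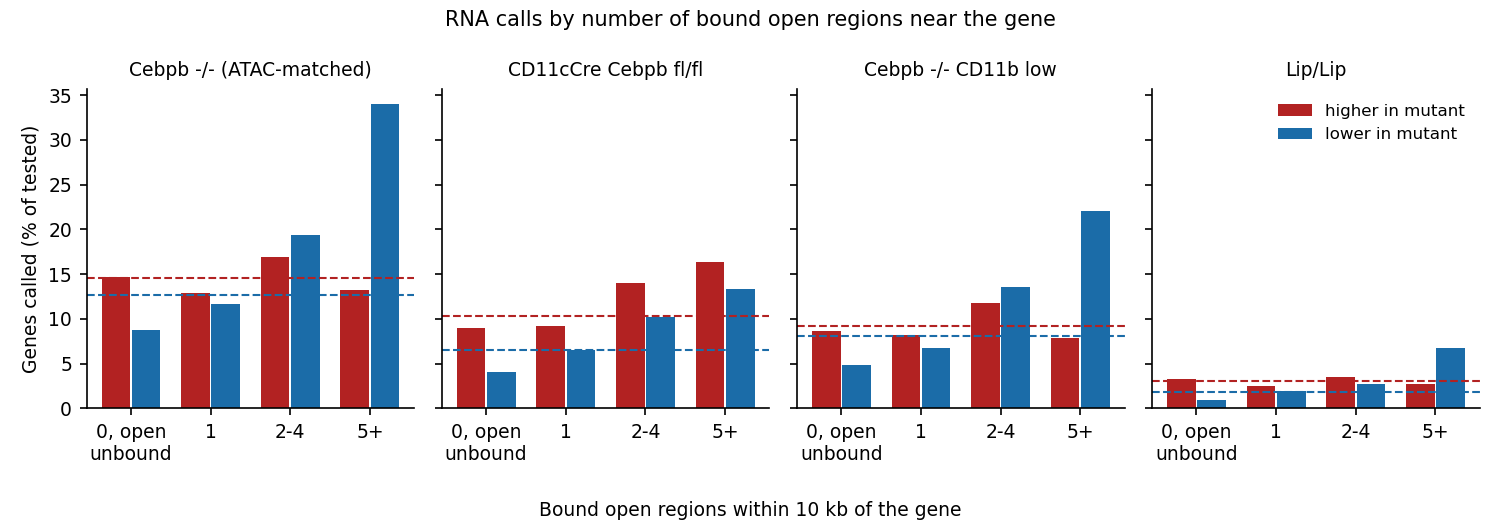
Percent of tested genes called higher or lower in the mutant (edgeR, adjusted p under 0.05) by the number of C/EBPβ-bound open regions within 10 kb, in the 4 RNA comparisons; dashed lines give the same percent over all genes tested. The lower share in Cebpb -/- goes from 8.73% with unbound open regions only to 34.0% with 5 or more bound ones, where the higher share has no such order; in the CD11c-Cre set the higher share goes up as well, from 9.0% to 16.3%.

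Other cells and libraries that stood apart bear on the RNA of these genes. Summed over 10 alveolar macrophage markers, the Cebpb -/- set had 10640 to 12287 CPM in control and 611 to 1042 in mutant libraries. Over 9 markers of monocytes and interstitial macrophages it had 49.1 to 99.9 against 5061 to 10782, with 4 of 6 tested markers higher. The same 9 markers gave 17.9 to 212 against 716 to 1201 CPM in the CD11c-Cre set, 48.0 to 106 against 2877 to 7380 in the CD11b low set and 22.1 to 36.5 against 91.3 to 421 in the Lip set. The 8 neutrophil markers summed to 61.9 to 73.6 against 194 to 450 CPM in the Cebpb -/- set, where 5 of 6 tested were higher and the defining genes Ngp and Ly6g did not pass the filter. Lymphocyte and eosinophil markers stayed below 4 CPM in sum in all 4 sets. Neutrophil markers were also higher in the CD11c-Cre set (102 to 134 against 350 to 435 CPM, 4 of 5 tested). Dendritic cell markers summed to 7.47 to 26 against 32.5 to 129 CPM in the CD11b low set. Epithelial markers summed to 57.1 to 64.1 against 97.1 to 115 CPM in the CD11c-Cre set, 82.8 to 98.6 against 119.8 to 330 in the Lip set and 30.6 to 79.7 against 7.78 to 16.0 in the Cebpb -/- set. Of the 9 monocyte and interstitial macrophage markers, 0 had a bound open region at the start and 4 had one within 10 kb (8 regions). The part of such cells in the results was not tested. The knockout library 3 of the Cebpb -/- set had 2374 CPM of Tnf against 159 and 50.8 in the other 2, and 4160 CPM of Cxcl2 against 377 and 144. Library totals ran from 642269 to 5996039 counts and were lowest in the CD11b low set (642269 to 1799626).

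Among genes with a bound open region at the start, the formyl peptide receptor gene Fpr1 fell in all 4 sets. Its region, 907 bp from the start (chr17:17882629-17883032), had a ChIP fold of 20.5 and 26.3 and ranked 30.3 and 24.8 in control and 48.1, 71.5 and 67.1 in knockout, all above both controls. Fpr1 RNA was 535, 500 and 789 CPM against 2.92, 4.94 and 18.1 in the Cebpb -/- set, a log2 fold change of -6.11 ± 0.68 (SE, adjusted p = 0.00067, edgeR). It fell by 3.39 ± 0.74 (adjusted p = 0.026) in the CD11c-Cre set, where the mutant libraries ranged from 5.46 to 104 CPM, by 5.92 ± 0.58 (adjusted p = 1.6e-05) in the CD11b low set and by 2.28 ± 0.52 (adjusted p = 0.022) in the Lip set. The CD11b low mutants had 7.79, 25.5, 1.16 and 0 CPM, of which 1.16 and 0 were under the level of 3 counts.

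Mcemp1, a mast cell and macrophage membrane protein, and Fcor, a corepressor of FOXO1, are neighbours on chromosome 8 with bound open regions about 7 kb apart (chr8:3664449-3664814 and chr8:3671926-3672628). Mcemp1 was 554, 542 and 633 CPM against 16.7, 17.1 and 51.9 in the Cebpb -/- set and fell in all 4 sets, by 4.33, 2.58, 4.60 and 1.23 on the log2 scale (adjusted p = 0.00033, 0.0032, 1.1e-06 and 0.0025). Fcor was 77.8, 62.2 and 69.5 against 1.25, 2.03 and 1.94 CPM in the Cebpb -/- set (-5.32 ± 0.25, adjusted p = 1.9e-06) and 126, 103 and 122 against 20.5, 9.68, 34.0 and 15.4 in the CD11c-Cre set (-2.53 ± 0.28, adjusted p = 4.9e-05). The Mcemp1 region had a ChIP fold of 37.8 and 43.5 and ranked 30.3 and 23.4 in control and 39.3, 66.6 and 31.6 in knockout, all above both controls. The Fcor region ranked 21.8 and 17.4 against 10.7, 23.1 and 36.2, which overlap.

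Chil3, the chitinase-like protein Ym1 and an abundant alveolar macrophage transcript, was 3838, 4065 and 4513 CPM in control. Chil3 was 11.3, 8.71 and 165 in Cebpb -/- (log2 fold change -6.06 ± 1.37, adjusted p = 0.025, edgeR). The region over its start (chr3:106167163-106167772) ranked 0.724 and 3.32 in control and 17.6, 18.2 and 55.1 in knockout. Relative openness was thus higher in the cultured knockout cells, and the transcript lower in the uncultured Cebpb -/- cells. Plcb1, a phospholipase C, fell in the Cebpb -/- set (56.8 ± 4.73 against 0.646 ± 1.12 CPM, SD, n = 3 each, adjusted p = 0.00016 by edgeR), in the CD11c-Cre set (15.6 ± 5.58 against 3.36 ± 1.38 CPM, SD, n = 3 and 4, adjusted p = 0.00055 by edgeR), in the CD11b low set (34.4 ± 8.49 against 3.56 ± 5.00 CPM, SD, n = 4 each, adjusted p = 3e-05 by edgeR) and in the Lip set (99.3 ± 26.4 against 9.78 ± 5.56 CPM, SD, n = 4 each, adjusted p = 3.2e-05 by edgeR). Its start region (chr2:134785689-134786778) stayed at ranks of 76.7 to 87.6 in all 5 lists. Wwtr1, the transcriptional coactivator TAZ, fell by 5.73 (adjusted p = 0.00017) in the Cebpb -/-, by 1.38 (adjusted p = 0.022) in the CD11c-Cre and by 4.16 (adjusted p = 1.5e-06) in the CD11b low set. Its mutant libraries had 0.209, 0 and 2.37 CPM in the Cebpb -/- set and 2.83, 7.29, 1.16 and 0 in the CD11b low set. The values 0.209, 1.16 and 0 were under the level of 3 counts, so the size of these falls is uncertain.

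Genes called higher in the Cebpb -/- set whose controls were near 0 included Il21r, the IL-21 receptor, Galnt9, F5, Cmklr1, the chemerin receptor, and Asgr2. Il21r was at 0, 0 and 0.367 CPM in control and 43.0, 31.4 and 29.5 in mutant, and Cmklr1 at 0.231, 0.184 and 0.367 against 33.2, 20.0 and 28.2. No fold is given for them, since every control library was under the level of 3 counts in all but F5, which had 0.736 CPM in 1 control library and 0 in the other two. Both start regions ranked lower in every knockout list than in either control, with 9.5 and 7.63 against 2.73, 0.909 and 1.43 at Il21r and 56.3 and 58.2 against 25.3, 34.0 and 29.7 at Cmklr1.

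Trem2, a lipid-sensing receptor, rose in the 3 knockout sets. Trem2 was 196, 162 and 119 CPM against 916, 1151 and 1047 in the Cebpb -/- set (log2 fold change 2.71 ± 0.22, adjusted p = 2.2e-05, edgeR). It rose by 3.16 ± 0.18 (adjusted p = 2.1e-07) in the CD11c-Cre set and by 2.77 ± 0.24 (adjusted p = 3.9e-08) in the CD11b low set, and the Lip set gave -0.46 ± 0.22 (adjusted p = 0.35). Its start region (chr17:48346181-48346815, ChIP fold 33.6 and 24.7) ranked 46.9 and 50.6 against 55.6, 52.1 and 26.8. Rbp4, the retinol-binding protein with the motif shown above, was 1.36, 9.81, 23.9 and 7.42 CPM against 1373, 1001, 523 and 971 in the CD11b low set (adjusted p = 2.7e-07, edgeR). In the CD11c-Cre set it was 0.211, 0.193 and 0 against 41.6, 43.7, 31.9 and 41.4.

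In the CD11c-Cre set Rgs7bp, a partner of regulators of G protein signalling, and Kif1a, a kinesin, rose too. Rgs7bp had no count in the 3 control libraries and 20.4 to 35.4 CPM in the mutants, and Kif1a was 2.31 ± 0.828 against 23.2 ± 5.15 CPM (SD, n = 3 and 4, adjusted p = 5.9e-06 by edgeR). Lacc1, a macrophage immunometabolic enzyme, rose by 2.94 ± 0.30 (adjusted p = 3e-05), and Tmem216, a ciliary membrane protein, fell by 2.56 ± 0.22 (adjusted p = 7.3e-06). Klra2, a killer-cell lectin-like receptor, was 63.5, 50.5 and 71.6 CPM against 12.7, 4.47, 11.5 and 5.12 (adjusted p = 1.7e-05) and fell in the other 3 sets as well, by 2.39, 3.68 and 1.27 (adjusted p = 2.9e-05, 1.4e-06 and 0.017). Klra2, like Klk1b11 and Chil3, belongs to a family of closely related genes whose reads could be split among copies. Fyb, an adaptor of immune cells, rose by 3.75 ± 0.42 (adjusted p = 2.3e-06) in the CD11b low set.

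The Lip set named other genes. Irf4, a transcription factor of alternatively activated macrophages, was 3.12, 2.6, 4.4 and 6.99 CPM against 38.3, 25.5, 20.7 and 41.0 (log2 fold change 2.81 ± 0.37, adjusted p = 9.8e-05, edgeR), and it rose in the knockout sets too, by 3.68, 2.6 and 2.61 (adjusted p = 2.6e-05, 2.9e-05 and 5.6e-05). Klk1b11 rose by 3.04 ± 0.28 (adjusted p = 2e-06), and Zranb3, Abhd2 and Tmem120b by 1.71, 1.67 and 1.64 (adjusted p = 0.009, 0.0061 and 0.0023). Flt1, the VEGF receptor 1, was 431, 360, 366 and 365 CPM against 14.4, 25.1, 28.8 and 45.5 (-3.74 ± 0.30, adjusted p = 5.5e-07). Flt1 rose in the 3 knockout sets, by 1.09 (adjusted p = 0.0053) in the Cebpb -/- set, 0.99 (adjusted p = 8.9e-05) in the CD11c-Cre set and 2.89 (adjusted p = 0.00068) in the CD11b low set. The difference from the Lip set was not tested. Sgms2, a sphingomyelin synthase, fell by 2.33 ± 0.33 (adjusted p = 0.00019) and Mmp8, a neutrophil collagenase, by 1.76 ± 0.45 (adjusted p = 0.03). Mmp8 is itself among the 8 neutrophil markers, which summed to 97.8 to 121 CPM in Lip +/+ and 17.5 to 35.1 in Lip/Lip, and the part of such cells was not tested.

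**Figure D5:**
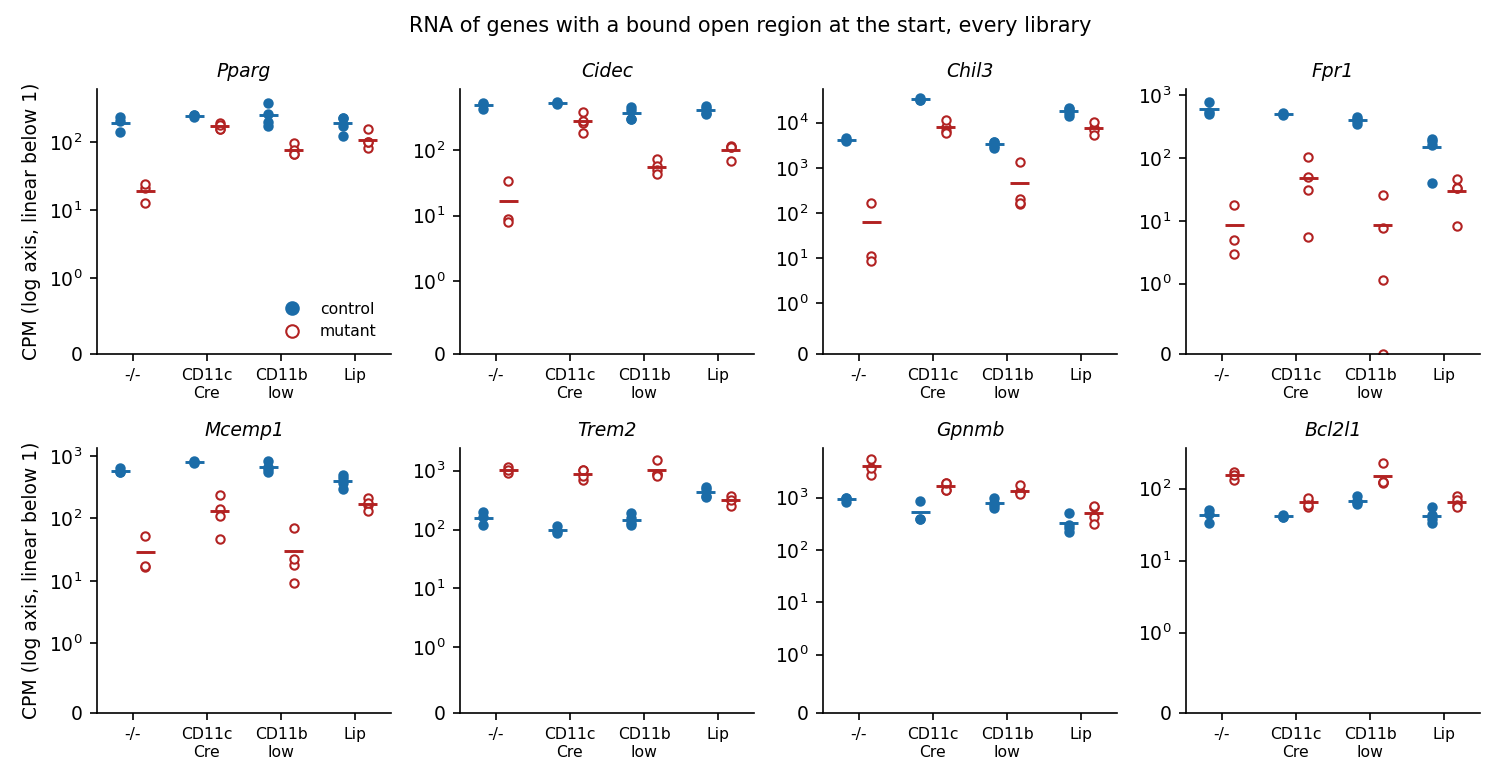
CPM of 8 genes with a C/EBPβ-bound open region within 1 kb of the start, every library of the 4 RNA comparisons shown as a point and group means as bars, on an axis that is logarithmic above 1 and linear below. Pparg, Cidec, Chil3, Fpr1 and Mcemp1 are lower in Cebpb -/- than in its controls with no overlap, and Trem2, Gpnmb and Bcl2l1 are higher.

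The counts of listed genes below are to be read against the shares over all genes tested: 14.6% higher and 12.6% lower in the Cebpb -/- set, 10.3% and 6.48% in the CD11c-Cre set, 9.16% and 8.08% in the CD11b low set, and 3.10% and 1.84% in the Lip set. The counts of regions below and above both controls are to be read against 28.6% and 9.13% of the 12983 bound open regions. Over the 52338 regions open in all lists these shares were 19.0% and 16.7%. Differences between the lists and these shares, or between linked and unlinked genes of a list, were not tested.

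Of 30 alveolar macrophage identity genes, 7 had a bound open region at the start and 23 within 10 kb, with 55 regions in all, of which 13 had all knockout ranks below and 7 above both controls. Of the 23, 16 fell and 2 rose in the Cebpb -/- set, with a median log2 fold change of -3.31 against 0.02 for all genes tested. Counts were 8 down and 6 up in the CD11c-Cre set, 12 down and 3 up in the CD11b low set and 5 down and 3 up in the Lip set. Over all 30 genes, linked or not, 20 fell and 2 rose in the Cebpb -/- set, with a median of -3.35. The list held markers long used for these cells, and its decline in these samples was known when it was made. Marco, Car4, Krt79 and Fabp4 had no bound open region within 10 kb.

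Cidec, which coats and enlarges lipid droplets, was 529, 505 and 432 CPM against 8.98, 33.7 and 7.96 in the Cebpb -/- set and fell in all 4 sets, by 4.89, 0.94, 2.69 and 2.02 (adjusted p = 0.00087, 0.0041, 3.6e-08 and 2.1e-05, edgeR). Its start region (chr6:113435626-113436280) ranked 19.7 and 41.0 in control and 28.6, 16.7 and 21.1 in knockout. Of the other 2 regions within 10 kb, one (chr6:113426719-113427061) was above the controls in every knockout list (39.4 and 19.5 against 65.9, 68.7 and 70.4) and the other, at the start of Jagn1 (chr6:113442187-113442879), below (64.8 and 69.3 against 58.1, 33.1 and 62.8). Olr1, a scavenger receptor for oxidised LDL, was 158, 182 and 161 against 12.3, 17.1 and 18.3 CPM (-3.39 ± 0.20, adjusted p = 4.2e-06), and fell by 0.70 (adjusted p = 0.01) and 2.28 (adjusted p = 2.6e-05) in the CD11c-Cre and CD11b low sets. Siglecf, the surface lectin used to sort these cells, fell by 4.31 in the Cebpb -/- set, 2.36 in the CD11b low set and 0.81 in the Lip set (adjusted p = 2.2e-05, 3.9e-07 and 0.048), and the CD11c-Cre set gave -0.41 (adjusted p = 0.094). A region within 10 kb of it (chr7:43353114-43353554) ranked 34.1 and 39.1 against 19.5, 13.5 and 8.62.

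Of 31 genes of lipid uptake, storage and PPARγ targets, 4 had a bound open region at the start and 21 within 10 kb (43 regions, 12 below and 6 above). Of 20 tested in the Cebpb -/- set, 9 fell and 0 rose. In the CD11c-Cre set 5 fell and 5 rose of 19, in the CD11b low set 4 fell and 1 rose of 19, and in the Lip set 5 fell and 1 rose of 20. Linked or not, 10 fell and 3 rose of 27 tested in the Cebpb -/- set. Cd36, the fatty acid translocase, had 9 regions within 10 kb. That at its start (chr5:17835559-17836191) ranked 9.27 and 15.7 against 4.88, 3.74 and 1.61. Cd36 RNA was 215, 213 and 227 CPM against 15.5, 27.6 and 37.5 in the Cebpb -/- set (-3.02 ± 0.28, adjusted p = 6.4e-05, edgeR), while the CD11c-Cre, CD11b low and Lip sets gave -0.42, -0.43 and -1.19 (adjusted p = 0.16, 0.18 and 0.14). Fabp1, a fatty acid binding protein with a region 1098 bp from a start (chr6:71197677-71198781), fell by 5.85, 1.51 and 2.90 in the 3 knockout sets (adjusted p = 6.8e-05, 0.00072 and 2.7e-08). Acot1, an acyl-CoA thioesterase with near-identical paralogs, was 130, 161 and 149 against 351, 290, 314 and 352 CPM in the CD11c-Cre set (1.15 ± 0.12, adjusted p = 4.5e-05) and 148, 134 and 106 against 49.1, 92.1 and 10.1 in the Cebpb -/- set (-1.37 ± 0.67, adjusted p = 0.19).

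Of 18 genes of cholesterol efflux and LXR targets, 3 had a bound open region at the start and 14 within 10 kb (29 regions, 7 below and 1 above). Of 13 tested in each set, 6 fell and 2 rose in the Cebpb -/- set, 2 fell and 5 rose in the CD11c-Cre set, 2 fell and 3 rose in the CD11b low set, and 4 fell and 2 rose in the Lip set. Linked or not, 6 fell and 4 rose of 17 tested in the Cebpb -/- set. Scarb1, the HDL receptor, fell in all 4 sets, from 112, 122 and 79.1 to 8.36, 19.7 and 18.7 CPM in Cebpb -/- (log2 fold change -2.75, adjusted p = 0.00024, edgeR) and with -0.59, -1.23 and -0.71 in the others (adjusted p = 0.012, 0.0011 and 0.049). Abca1, the cholesterol exporter, rose by 1.6 (adjusted p = 4.9e-05) in the CD11c-Cre and 2.42 (adjusted p = 1.1e-06) in the CD11b low set. The region in Abca1 (chr4:53119970-53120807, ChIP fold 32.8 and 36.2) ranked 7.99 and 15.3 against 5.11, 16.6 and 10.8. Nr1h3, which encodes LXRα, rose by 0.64 (adjusted p = 0.0014) in the CD11c-Cre set and fell by 1.6 (adjusted p = 0.0041) in the Lip set.

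Of 19 genes of the GM-CSF receptor and STAT5 axis, 3 had a bound open region at the start and 15 within 10 kb (28 regions, 10 below and 0 above). Of the 15, 7 rose and 2 fell in the Cebpb -/- set, 8 rose and 0 fell in the CD11c-Cre set, and 7 rose and 1 fell in the CD11b low set. In the Lip set 3 rose and 3 fell of 14 tested. Over all 19 genes, linked or not, 9 rose and 3 fell in the Cebpb -/- set. Csf2ra, the ligand-binding chain, had 2 regions at its start under 1 ChIP region of fold 27.3 and 19.9, and all knockout ranks of both lay below the controls (11.5 and 16.2 against 10.0, 5.47 and 10.8 at chr19:61227011-61228097). Csf2ra RNA was 202, 205 and 263 against 226, 204 and 244 CPM in the Cebpb -/- set and passed the test in none of the 4. Csf2rb, which carries the signal, fell by 0.55 (adjusted p = 0.034, edgeR) in the Cebpb -/- set.

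Downstream of the receptor, Bcl2l1, the survival protein BCL-XL, was 33.7, 50.6 and 44.2 CPM against 172, 131 and 156 in the Cebpb -/- set. It rose in the 3 knockout sets by 1.84, 0.64 and 1.11 (adjusted p = 0.00013, 0.0049 and 0.0017, edgeR). Cish, a feedback inhibitor of STAT5, rose by 1.05 (adjusted p = 0.0065) in the Cebpb -/- set, 0.82 (adjusted p = 0.017) in the CD11c-Cre set and 0.89 (adjusted p = 0.021) in the Lip set. Its start region (chr9:107295458-107297019) ranked 36.2 and 19.0 against 8.94, 12.3 and 5.69, below the controls while the transcript was above. Myc, with a region within 10 kb bound at a fold of 66.9 and 49.4 (chr15:61983401-61983744), fell by 0.73 (adjusted p = 0.014) in the Cebpb -/- set and by 0.96 (adjusted p = 0.035) in the Lip set.

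Of 57 macrophage transcription factor genes, 16 had a bound open region at the start and 44 within 10 kb (112 regions, 29 below and 10 above), with Runx1 (10 regions), Irf2 (9), Runx2 (7) and Pparg (7) holding most. Of the 44 tested in the Cebpb -/- set, 9 rose and 7 fell. Counts were 9 up and 7 down of 43 in the CD11c-Cre set, 6 up and 8 down of 43 in the CD11b low set and 2 up and 4 down of 44 in the Lip set. Linked or not, 14 rose and 9 fell of 56 tested in the Cebpb -/- set. The start of Irf2, an interferon-regulatory factor, carried the motif printed above and a ChIP fold of 57.0 and 42.0 (chr8:46739293-46740403), and ranked 17.1 and 22.3 in control and 3.74, 2.90 and 6.54 in knockout. Irf2 RNA was 76.6, 67.6 and 76.1 against 65, 64.2 and 82.4 CPM in the Cebpb -/- set (adjusted p = 0.83, edgeR), and it fell by 0.66 (adjusted p = 0.044) in the CD11b low set.

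Of the other C/EBP family genes in the list, Cebpa, Cebpg and Ddit3 had a bound open region at the start, and Cebpd and Cebpe had none within 10 kb. Ddit3, the stress-induced relative CHOP, had a region 659 bp from its start with a ChIP fold of 57.8 and 42.8 (chr10:127289787-127290134). That region ranked 0.417 and 5.41 against 4.7, 0.309 and 5.36. Another bound open region (chr10:127290425-127291318) covered the start itself, and its ranks are not given here. Ddit3 RNA was 61.8, 44.5 and 56.5 against 224, 213 and 325 CPM in the Cebpb -/- set (2.23 ± 0.22, adjusted p = 7.5e-05, edgeR) and rose by 0.51 and 1.95 (adjusted p = 0.017 and 0.013) in the CD11c-Cre and CD11b low sets. Atf4, a partner of C/EBPβ, had a start region with a ChIP fold of 46.9 and 38.7 (chr15:80254892-80256227) and passed the test in none of the 4 sets. At Cebpa, the start region (chr7:35118036-35119482, fold 30.5 and 23.0) ranked 43.8 and 35.4 against 11.9, 15.8 and 8.24, and the RNA was 127, 132 and 116 against 241, 216, 194 and 224 CPM in the CD11c-Cre set (0.81 ± 0.12, adjusted p = 0.00041) and 70.6, 75.8 and 72.7 against 76.3, 105 and 92.8 in the Cebpb -/- set (adjusted p = 0.18). Nfe2l2, the oxidative stress regulator NRF2, rose by 0.71 (adjusted p = 0.00056) in the CD11c-Cre set, with start ranks of 24.3 and 21.2 against 12.0, 6.01 and 10.1 (chr2:75703398-75704805). Spi1, which encodes PU.1, had a region within 10 kb of it with a ChIP fold of 52.3 and 36.2 (chr2:91082729-91083372) and passed the test in none of the 4 sets.

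Of 39 inflammatory mediators and receptors, 15 had a bound open region at the start and 32 within 10 kb (68 regions, 16 below and 8 above). Of the 32 tested in the Cebpb -/- set, 10 rose and 4 fell, 8 rose and 9 fell of 28 in the CD11c-Cre set, 3 rose and 11 fell of 26 in the CD11b low set, and 1 rose and 2 fell of 27 in the Lip set. Linked or not, 13 rose and 4 fell of 37 tested in the Cebpb -/- set. The differences between the sets were not tested. In the Cebpb -/- set the knockout library 3 stood apart for these genes: Nlrp3, the inflammasome sensor, was 71.4, 31.4 and 293 CPM in the mutants against 17.3, 34.8 and 30.3 (adjusted p = 0.11, edgeR). In the CD11b low set Nlrp3 was 46.3, 43.4, 49.9 and 51.9 against 16.3, 18.2, 23.3 and 24.6 (-1.22 ± 0.24, adjusted p = 0.0011). Its start region (chr11:59542244-59543021, ChIP fold 43.7 and 47.7) ranked 14.5 and 17.7 in control and 27.2, 25.6 and 29.8 in knockout.

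Clec4e, the receptor Mincle, had one of the most open bound starts, at ranks of 97.5 and 88.2 in control and 95.2, 97.5 and 96.5 in knockout (chr6:123289517-123290445). Its RNA was 38.1, 58.8, 88.8 and 91.1 against 17, 14.6, 23.9 and 22.0 CPM in the CD11b low set (-1.82 ± 0.29, adjusted p = 9.4e-05, edgeR) and fell by 0.72 (adjusted p = 0.015) in the CD11c-Cre set. Il1rn, the IL-1 receptor antagonist, fell by 0.59, 1.63 and 1.00 in the CD11c-Cre, CD11b low and Lip sets (adjusted p = 0.0074, 0.00016 and 0.02). Nfkbia, the NF-κB inhibitor, had a ChIP fold of 59.3 and 52.7 at its start (chr12:55491825-55492897), and fell by 0.69 (adjusted p = 0.0056) in the CD11c-Cre set. Il6 was among the starts that ranked above both controls in every knockout list (50.4 and 60.0 against 87.4, 73.3 and 93.4 at chr5:30012750-30013597). Ifngr2, a chain of the interferon-γ receptor, rose by 0.91, 0.64 and 0.81 in the knockout sets (adjusted p = 0.0017, 0.0083 and 0.011).

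Of 24 genes of the lysosome and surfactant breakdown, 6 had a bound open region at the start and 20 within 10 kb (40 regions, 16 below and 2 above). The other regions had overlapping ranks. Of the 20 genes, 12 were higher and 3 lower in the Cebpb -/- set, 14 and 0 in the CD11c-Cre set, 9 and 2 in the CD11b low set and 5 and 0 in the Lip set. Over all 24, linked or not, 14 were higher and 4 lower in the Cebpb -/- set. At the start of Gpnmb, a lysosomal glycoprotein of lipid-laden macrophages (chr6:49035689-49036909), the ranks were 7.61 and 6.26 in control and 0.312, 0.354 and 0.135 in knockout. Gpnmb RNA was 985, 809 and 978 against 2724, 3753 and 5472 CPM in the Cebpb -/- set, and rose by 2.11, 1.6 and 0.82 in the 3 knockout sets (adjusted p = 0.00024, 0.00097 and 0.0063, edgeR).

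The same pairing of a lower rank at the start with more RNA was seen at Ctsz, the protease cathepsin Z, and Psap, which encodes the saposins. The Ctsz region (chr2:174437655-174438278) ranked 19.3 and 10.5 against 1.58, 0.775 and 0.889, and its RNA rose by 1.27, 0.77 and 1.38 in the knockout sets (adjusted p = 0.00018, 0.025 and 0.00016, edgeR). The Psap region (chr10:60277491-60278094) ranked 14.0 and 4.56 against 1.22, 2.83 and 0.112, and its RNA rose by 0.97, 0.70 and 0.80 (adjusted p = 0.0016, 0.0058 and 0.0037). The start region of Grn (chr11:102430150-102430597) ranked lower too, at 5.15 and 5.69 against 1.19, 0.907 and 3.35. Grn RNA was not called higher in the CD11c-Cre or CD11b low set, so the pairing was not seen there. Cd68 rose by 0.76, 0.42 and 0.72 (adjusted p = 0.0039, 0.02 and 0.0088), with start ranks of 4.18 and 7.79 against 5.84, 8.80 and 0.777, which overlap. All 3 regions of Ctsb, a cysteine protease, ranked below the controls in every knockout list. Ctsl, the protease whose motif is shown above, went the other way in rank: its start (chr13:64370188-64370825, fold 32.0 and 21.4) ranked 60.4 and 59.2 in control and 83.8, 67.8 and 92.8 in knockout, and its RNA rose in the CD11c-Cre set from 370, 323 and 339 to 711, 894, 671 and 528 CPM (1.03 ± 0.16, adjusted p = 0.00073).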

How the data were processed

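ATAC and ChIP peak lists were used as deposited, 1 per library. In them the fold (a ratio over local background) and the −log10 q of each peak are the authors' values, and alignment with BWA 0.7.17 and peak calling with MACS2 2.2.7.1 on GRCm38 (mm10) are named in the submitters' processing notes, which give no parameters. The score column of the deposited lists, a rescaled −log10 q by the authors, was only checked. RNA was used as deposited counts per gene, with STAR 2.6.1a and featureCounts 1.6.3 named in the same notes.

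Peaks were merged and overlapped in Python 3.11.15, and each list was ranked over the regions open in all 5. The numbers of merged ATAC regions and of bound open regions were checked with bedtools 2.31.1. A planned exact permutation test of these ranks, whose smallest two-sided p is 0.2, is not used, because the same lists chose the regions. Positions and promoters came from RefSeq (GRCm38.p6), and 20570 of 22050 genes were matched by symbol and 770 by synonym. Chromosomes whose sequences are not reported here were left out of positions, and ChIP inputs and uncultured ATAC samples were not used here.

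Counts were tested per comparison with edgeR 4.0.16 in R 4.3.3 (TMM, quasi-likelihood, minimum count of 10 in filterByExpr, Benjamini-Hochberg over all genes tested), and checked with DESeq2 1.42.0. On simulated counts, 4-fold changes were recovered in 92%, 97%, 92% and 90% and 2-fold changes in 25%, 79%, 56% and 36% of cases in the Cebpb -/-, CD11c-Cre, CD11b low and Lip comparisons. The labels do not tell whether replicates came from separate mice, so p-values measure the spread between these libraries, which may be technical.

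Named regions were the 6 with the highest ChIP rank, the 5 largest shifts of ATAC rank each way without overlap between groups, and the widest or most bound. Named genes were up to 5 rises and 5 falls per comparison with a region at the start, no overlap of CPM and a mean of at least 20 CPM in 1 group, and list genes with a linked region, up to 6 a list, beside further list genes chosen after their values were seen. The regions and lists were chosen with earlier results of these data known.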

Additional observations from a re-analysis of the deposited data

Results flagged for a closer look

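One library lay far from the other 3 of its group in 4 cases. Chance alone gives such a case in about 1 of 20 groups. The number of groups looked at is not given, so the 4 cases cannot be set against that rate. Rgs7bp was lowest at 20.4 CPM in 1 CD11c-Cre mutant library. Klra2 was lowest at 23.1 CPM in 1 control library of the CD11b low set. Cidec was lowest at 67.7 CPM in 1 Lip/Lip library. Flt1 was highest at 430.6 CPM in 1 Lip +/+ library.

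The mutant libraries moved in opposite directions in the Cebpb -/- and CD11c-Cre sets for 3 genes with a bound open region, and the difference between the sets was not tested. Acot1, an acyl-CoA thioesterase, had a log2 fold change of -1.37 in the first and 1.15 in the second. Mgll, the monoacylglycerol lipase, had -0.84 and 0.42. Sgms2, the sphingomyelin synthase, had -0.75 and 0.66.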

How the results depend on the processing

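Alternatives for the shares of regions with separated ranks, for higher and lower genes at starts and for genes with 5 or more regions were chosen after seeing the data. Asking for a −log10 q of at least 10 left 5538 of the 12983 regions. A ChIP summit inside the region in both ChIP lists was found for 11517. Asking that at least 50% of the ChIP region be covered left 10426. Ranked away from gene starts, the rank difference of -9.58 became -11.8, the share below both controls 31.2% and the share above 8.45%; ranked by −log10 q the shares were 30.5% and 8.50%. Leaving out 1 ATAC list gave 34.2% to 45% below and 13.0% to 21.0% above, where fewer lists have to be ordered, against 19.6% to 27.5% below in unbound regions. The share at gene starts was 18.4% within 250 bases and 34.3% within 5 kb.

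Linking genes within 10 kb raised the called genes from 596, 363, 309 and 66 to 1684, 1078, 882 and 284 in the Cebpb -/-, CD11c-Cre, CD11b low and Lip sets. More genes are linked that way. The called share of tested genes went from 26.6% to 30.2% in the Cebpb -/- set, against 27.2% of all genes. It went from 16.3% to 19.7% (all genes 16.8%) in the CD11c-Cre set and from 16.8% to 19.9% (17.2%) in the CD11b low set. In the Lip set it went from 3.06% to 5.38% (4.94%). Leaving out 1 library gave 361 to 820, 211 to 614, 226 to 325 and 35 to 83. Lower genes at the start ranged over 194 to 454, 102 to 332, 125 to 187 and 17 to 40, and higher ones over 167 to 366, 109 to 282, 89 to 138 and 18 to 43. Lower genes with 5 or more regions ranged over 76 to 127, 25 to 67, 40 to 55 and 10 to 31. The called genes moved by over 1.5 times without control 1 (392) or control 2 (361) of the Cebpb -/- set, without control 1 (211), control 3 (240) or mutant 4 (614) of the CD11c-Cre set, and without control 1 (42), control 2 (40) or mutant 1 (35) of the Lip set; the cause was not tested.

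Replicate numbers were not taken as pairs, since in no set did every same-numbered pair correlate above 0.1. So few libraries cannot show that the samples were unpaired. With the replicate number as a block, 605 genes were called in the CD11c-Cre set, 327 of them lower, with 65 lower genes among those with 5 or more regions, and 34 such genes in the CD11b low set. Mutant 4 of the CD11c-Cre set has no same-numbered control, so it adds nothing to the contrast in the block fit. Leaving it out without a block gave 614. Of 1280 alternatives for 115 results of named genes, 1186 kept direction and call, 94 kept the direction only (80 without 1 library, 8 with the block and 6 without a filter) and 0 reversed. Of the 4 sets, library totals were lowest in the CD11b low set, and on simulated counts 2-fold changes were recovered least often in the Cebpb -/- set (25%).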
